A study of Mus musculus with 15 samples.

Results

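Dcn, Lum, Col1a1, Col1a2, Col3a1, Pdgfra, Ly6a and Ly6c1 are 8 genes whose products are best known from connective tissue and from the surface of vessel, blood and stem cells, not from neurons. They are described here in RNA of captured spinal motor neurons, 8 of the 36814 genes in the deposited table. The genes were chosen by their levels in the pool of the extensor digitorum longus (EDL) muscle against the other pools, with Dcn and Ly6a already known to be high there. Rows were found by exact match of the gene symbol, and all 8 had 1 row. Their values in EDL against the rest are therefore given as a description, with no test. The question asked of them was whether the EDL libraries hold RNA of fibroblasts, meninges or vessels.

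A fibroblast lays down the matrix around it. Its staple products are the chains of the fibrillar collagens type I and type III, and the small leucine-rich proteoglycans, which bind those fibrils and set their spacing. In the spinal cord such cells sit in the meninges and along larger vessels, and few lie within the grey matter. Ly6a (also called Sca-1) and Ly6c1 encode small proteins held on the outer cell surface by a lipid anchor. They are used to sort haematopoietic stem cells, monocytes, mesenchymal progenitors and endothelial cells, and interferon raises Ly6a in many cells.

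The 15 libraries came from motor neurons of mice at postnatal day 6, with 3 libraries for each of 5 motor pools. A pool is the set of motor neurons of a muscle, here the tibialis anterior (TA), EDL, peroneus longus (PL), gastrocnemius (GS) and, as a group of muscles, the intrinsic foot muscles (IF). Per the labels, the neurons of every group were filled from the muscle with the tracer CTB-Alexa 555 at 0.1%, injected at postnatal day 4, and cut by laser from unfixed cord sections of 12 µm. Captured tissue of several animals was pooled to at least 250000 µm2 for a library. No other treatment, transgene or allele is named for any group. Libraries of a pool are labelled as biological replicates, and none is tied to particular animals, so p-values measure the spread between these pooled libraries. Total gene counts ran from 4417114 to 8488368, and PL 2 and PL 3 stood apart with 11019 and 10548 genes detected against 13092 to 17321 in the 13 others. Chat, Slc5a7 and Isl2, which serve acetylcholine synthesis, choline uptake and motor neuron identity, had reads in all 15 libraries. Levels are CPM, the gene's count scaled to a library total of 1000000, with TMM scaling between libraries. Means are given ± SD over 3 libraries.

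In the mm9 build of the files, Dcn lies on chromosome 10 from 96942245 to 96980778 on the plus strand, and Lum follows it on the same strand from 97028135 to 97035338. Ly6a spans 74825308 to 74828065 and Ly6c1 spans 74875447 to 74879261, both on the minus strand of chromosome 15. The collagen genes are Col1a1 on chromosome 11 (94797538 to 94814357), Col1a2 on chromosome 6 (4454814 to 4491544) and Col3a1 on chromosome 1 (45368383 to 45406552). Pdgfra is on chromosome 5 (75548316 to 75594230). All 4 are on the plus strand. In the table, 1 other gene row overlaps Col1a1 and none overlaps the other 7 genes.

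The reads of the Ly6 genes have to be read with their sequences in view, because Ly6c1 has near copies. In the coding sequence, Ly6c2 was identical to Ly6c1 at 387 of 396 bases (97.7%), and Ly6a at 332 of 405 aligned columns (82.0%), of which 9 were gaps. The stretches shown are bases 1 to 60 of the coding sequence, where the 3 genes are close, and bases 211 to 270 of Ly6c1, where Ly6a differs most. They come from the GENCODE vM21 transcripts (build GRCm38), run 5′ to 3′, and capitals mark bases that differ from Ly6c1.
Ly6c1, bases 1 to 60: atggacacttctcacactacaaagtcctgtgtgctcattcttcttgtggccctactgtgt
Ly6c2, same stretch: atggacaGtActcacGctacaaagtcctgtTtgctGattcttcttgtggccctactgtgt
Ly6a, same stretch: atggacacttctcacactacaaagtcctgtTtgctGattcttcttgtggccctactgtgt
Ly6c1, bases 211 to 270: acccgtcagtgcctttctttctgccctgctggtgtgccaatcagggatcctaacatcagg
Ly6c2, same stretch: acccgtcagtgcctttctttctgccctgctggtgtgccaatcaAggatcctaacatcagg
Ly6a, same stretch: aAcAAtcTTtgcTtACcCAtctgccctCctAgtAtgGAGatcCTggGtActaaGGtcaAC
In the first stretch Ly6c2 differed from Ly6c1 at 5 bases and Ly6a at 2. In the second, Ly6c2 differed at 1 base and Ly6a at 24. Of the windows of 50 bases in the annotated transcripts of Ly6c1, 32.8% also occurred in another gene, 21.5% in Ly6c2. For Ly6a the share was 19.0%, with 15.03% in Ly6c1. How the authors' counting split such reads is not given in the sources used here, so the division between Ly6a, Ly6c1 and Ly6c2 is uncertain. Dcn, Lum, Col1a1 and Col1a2 shared no such window with another gene, Col3a1 shared 1.64% and Pdgfra 5.19%.

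Dcn encodes decorin, a small proteoglycan that coats collagen fibrils and binds growth factors. It stood at 70.9, 195 and 86.7 CPM in EDL 1, 2 and 3 (612, 1727 and 691 reads). Every EDL library lay above all 12 others. IF held 3.26, 10.2 and 1.30 CPM, TA held 0.170, 0 and 8.44, PL held 4.77, 0.319 and 0.883, and GS held 1.02, 0.340 and 0. The EDL mean of 118 ± 67.8 CPM was 45.9 times the mean of the 12 other libraries (2.56). The lowest EDL library was 6.92 times the highest other library, IF 2. On the fitted scale, which takes EDL minus the mean of the 4 other pool coefficients, the log2 fold was 5.91 ± 0.92 (SE). It was 7.11 without TA 3, the library with most of the TA reads. In order of mean, IF (4.94), TA (2.87), PL (1.99) and GS (0.455) followed EDL, and each overlapped its neighbour in that order.

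Among the 4 other pools, a contrast that the choice of genes did not use, Dcn did not pass the test. Over TA, PL, GS and IF, edgeR's quasi-likelihood F-test (p adjusted by Benjamini-Hochberg over all genes tested) gave adjusted p = 0.544, where 1.44% of the 14340 genes tested were called. Under the other settings tried its adjusted p ran from 0.167 to 0.814.

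Lum encodes lumican, a proteoglycan of the same family, and lies 47.4 kb beyond Dcn. Its levels did not follow those of Dcn. EDL 1 held 3.48 CPM (30 reads), and EDL 2 and EDL 3 held no read, which allows up to 0.339 and 0.376 CPM by 3 counts in a library. TA held 14.1, 0.181 and 22.9 CPM and IF 2.75, 3.25 and 1.01. PL 1 held 25.7 CPM, the highest of the 15, and PL 2 and PL 3 had no read. GS had 3 reads in all, in GS 1. The 2 EDL libraries at 0 for Lum include EDL 2, the library highest for Dcn. The fitted log2 fold in EDL was -1.12 ± 1.84 and turned to 1.10 without PL 1, so that 1 library set its sign. The test among the 4 other pools was not passed (edgeR F-test, adjusted p = 0.450).

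Col1a1 and Col1a2 encode both chains of type I collagen, the main fibrillar collagen of fibroblasts, and Col3a1 encodes the chain of type III collagen. Col1a1 was at 0, 14 and 0 reads in EDL 1, 2 and 3. IF had 7, 15 and 4 reads, TA, PL and GS 1 read each over 3 libraries. The highest level, 1.87 CPM, was in IF 2, ahead of EDL 2 at 1.58 CPM. Col3a1 was at 0, 2 and 10 reads in EDL and at 18, 4 and 0 in TA. GS had 2 reads and IF and PL none, which allows a mean of up to 0.121 CPM in IF and 0.178 in PL by 3 counts over the pool. Neither gene passed the filter on low counts, so neither was tested.

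Of these 3 collagen chains Col1a2 had the most reads, and EDL did not lie apart. The EDL libraries held 9.04, 10.9 and 15.1 CPM. PL held 18.4, 0 and 28.5 CPM and TA 0, 22.2 and 5.28, so that single libraries of both pools exceeded every EDL library while others had no read. IF held 4.07, 6.37 and 5.64 CPM and GS 2.63, 0.340 and 9.30. The fitted log2 fold in EDL was 0.64 ± 1.19, and the 4 other pools gave adjusted p = 0.860. Col1a1, the partner chain in the same collagen molecule, had 14 reads in EDL against 294 reads of Col1a2.

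Pdgfra encodes the alpha receptor of platelet-derived growth factor. It marks fibroblasts, but in the spinal cord it also marks oligodendrocyte precursors, the glial cells that give rise to myelinating cells. It had reads in all 15 libraries, at 17.96, 42.8 and 15.2 CPM in EDL. TA held 90.7, 20.05 and 58.7 CPM, IF 28.3, 32.4 and 22.1, PL 46.1, 6.39 and 37.7, and GS 57.7, 7.15 and 8.98. EDL ranked 4 of 5 by mean, and all neighbours in the order TA, PL, IF, EDL and GS overlapped. The fitted log2 fold in EDL was -0.37 ± 0.73 and adjusted p among the 4 other pools was 0.801. Across the 15 libraries, the Pearson r of log2(CPM + 1) between Pdgfra and Dcn was 0.146, and between Pdgfra and Lum 0.618. These points share library depth and pool and are given as a description.

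**Figure D1:**
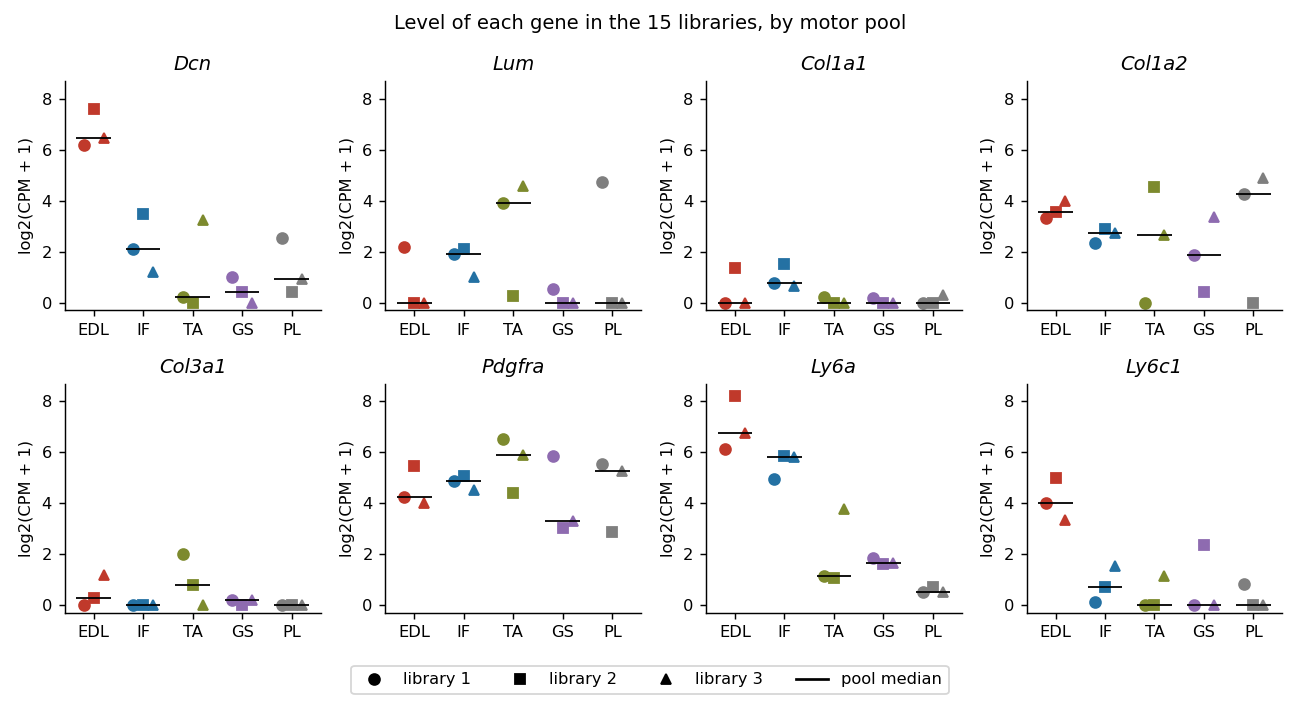
Level of each of the 8 genes as log2(CPM + 1, TMM-scaled) on the vertical axis, by motor pool on the horizontal axis, with 1 point per library and a line at the pool median. The 3 EDL points lie above all others for Dcn, Ly6a and Ly6c1 alone, and IF lies second for Ly6a.

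Levels of different genes can be compared per length, on the deposited RPKM scale (reads per kilobase of gene, scaled to the library's reads). Dcn stood at 19.7, 60.4 and 27.6 RPKM in EDL. The levels of Lum, Col1a1, Col1a2 and Col3a1 summed to 1.30, 0.696 and 0.858 RPKM in the same libraries. Dcn thus exceeded the other 4 matrix genes together by 15.1, 86.8 and 32.2 times in EDL 1, 2 and 3. In IF the same ratio was 0.951, 2.23 and 0.646. TA 3, the TA library with the most Dcn, had 0.381, and PL 1 had 0.177. GS 1 and GS 2 stood at 1.13 and 6.27, on 7 and 2 reads of Dcn, and PL 2 had 1 read of Dcn and none of the other 4. Dcn was among the genes chosen by EDL levels, so its high ratio there follows in part from that choice. The mean CPM in EDL was 1.71, 1.36 and 1.45 times that of the 12 others for Col1a1, Col1a2 and Col3a1. For Lum it was 0.198 times. For none of these 4 genes did EDL lie apart from the other pools. The source of the Dcn reads was not tested.

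**Figure D2:**
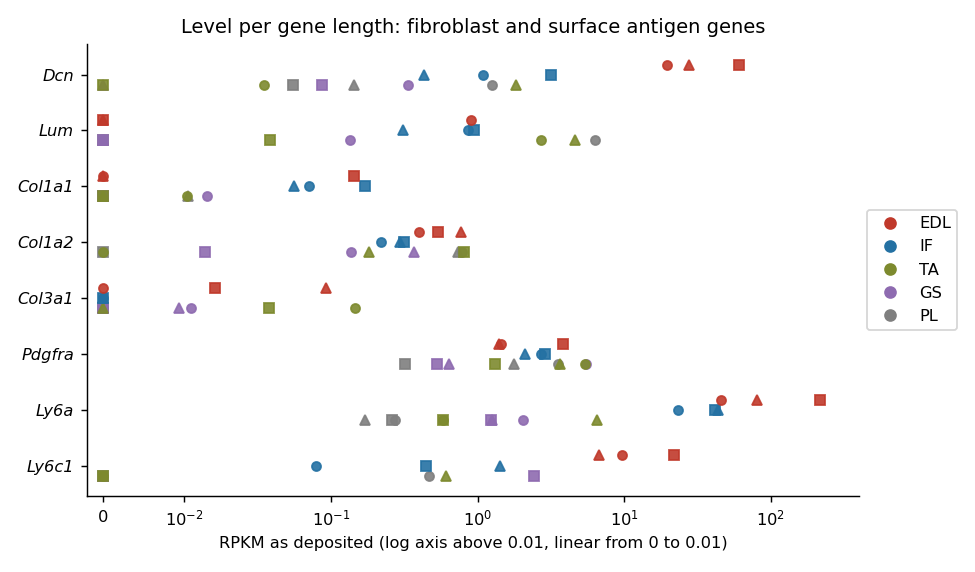
Deposited RPKM of the 8 genes on a horizontal axis that is logarithmic above 0.01, with 1 point per library coloured by pool and shaped by library number. Dcn and Ly6a exceed 19 RPKM in all 3 EDL libraries, while Lum, Col1a1, Col1a2 and Col3a1 stay under 1 RPKM there.

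Ly6a had the highest level per length of the 8 genes in EDL, at 114 ± 90.6 RPKM. It stood at 69.2, 297 and 107 CPM (597, 2624 and 853 reads) in EDL 1, 2 and 3. IF came second at 29.6, 56.7 and 56.1 CPM. The 9 libraries of TA, GS and PL ran from 0.433 to 12.8 CPM, with TA 3 at the top. EDL and IF did not overlap, but EDL 1 was only 1.22 times IF 2. The EDL mean of 158 ± 122 CPM was 11.4 times that of the 12 others. The fitted log2 fold was 5.27 ± 0.57, and 4.43 without EDL 2, which held more Ly6a than the other 2 EDL libraries together.

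Ly6a differed among the 4 other pools, in which no EDL value enters the contrast. Means were 47.5 ± 15.5 CPM in IF, 5.04 ± 6.76 in TA, 2.27 ± 0.319 in GS and 0.504 ± 0.116 in PL. The 3 IF libraries lay above all 9 libraries of TA, GS and PL, and GS lay above PL, while TA and GS overlapped. The edgeR F-test gave adjusted p = 0.00325 for any difference among the 4. Ly6a was the 1 of 6 genes tested that was called, where 1.44% of all genes tested were called. Of the 6, Ly6c1 passed the filter on low counts only through its EDL reads. By pair, PL minus IF was -6.55 ± 1.08 in log2 (adjusted p = 0.00586, with 0.900% of genes called). GS minus IF was -4.38 ± 0.94 (adjusted p = 0.107, 0.126% called) and TA minus IF was -3.23 ± 0.89 (adjusted p = 0.131, 0.628% called), and neither pair passed. These pairs were chosen after the values were seen. Limma voom gave adjusted p = 0.0618 for the 4 pools and a fit of the 12 libraries alone gave 0.0444.

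Ly6c1 was at 15.2, 30.6 and 9.16 CPM in EDL (131, 270 and 73 reads). Of the 12 others, 6 had no read, and the highest was GS 2 at 4.09 CPM (24 reads). IF, second for Ly6a, held 0.102, 0.625 and 1.88 CPM (1, 5 and 13 reads). The EDL mean of 18.3 ± 11.0 CPM was 25.3 times that of the 12 others, the fitted log2 fold was 4.85 ± 1.26, and it was 6.42 without GS 2. Across TA, PL, GS and IF the F-test gave adjusted p = 0.887. Ly6c1 passed the filter on low counts only through its EDL reads. It was not tested in a fit of the 12 others alone, so nothing is read from that p. Ly6c2, the near copy, had 0, 11 and 2 reads in EDL and 4 reads in the 12 others.

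Because Ly6a and Ly6c1 share sequence, the split of reads between them is given per library. Reads of Ly6c1 made up 17.99%, 9.33% and 7.88% of the sum of both genes in EDL 1, 2 and 3. In IF they made up 0.342%, 1.09% and 3.24%. The exact 95% binomial intervals reached down to 6.23% in EDL and up to 5.48% in IF, and cover counting error only. Since EDL values chose both genes, nothing is read from the gap between these intervals. At similar Ly6a levels, EDL 1 (69.2 CPM) had 131 reads of Ly6c1 and IF 2 (56.7 CPM) had 5. TA 3, with 7 reads of Ly6c1 and 73 of Ly6a, was at 8.75%, within the range of EDL, and GS 2, with 24 and 12, was at 66.7%. The share of reads assigned to Ly6c1 was thus not the same in all libraries with Ly6a reads, and the part of reads assigned to the wrong gene was not tested.

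Dcn and Ly6a also stood in different proportion in the pools where both had reads. Dcn reads were 50.6%, 39.7% and 44.7% of the sum of both in EDL. In IF they were 9.91%, 15.3% and 2.27%, with intervals up to 18.6%. The lowest EDL interval began at 38.2%. EDL values chose these genes too, so the gap to IF is a description only. TA 3, with 48 reads of Dcn and 73 of Ly6a, was at 39.7% (30.9% to 49.0%). PL 1 was at 91.7%, with 44 reads of Dcn and 4 of Ly6a, and GS 1 at 28.0% of 25 reads. Libraries with fewer than 20 reads of both are left out.

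**Figure D3:**
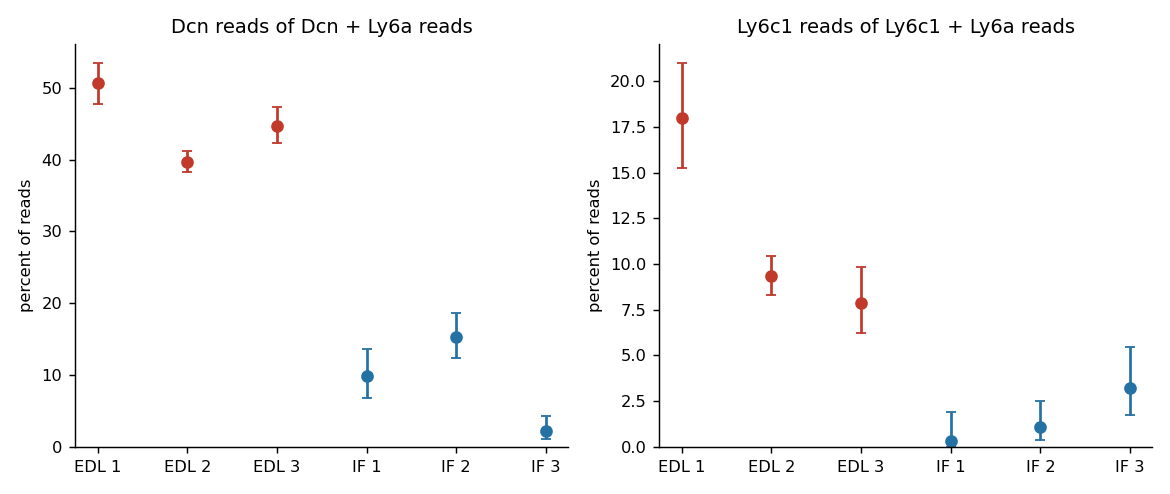
Share of Dcn reads among Dcn and Ly6a reads (left) and of Ly6c1 reads among Ly6c1 and Ly6a reads (right), in percent on the vertical axis, for the 3 EDL and 3 IF libraries, with exact 95% binomial intervals. The EDL shares run from 39.7% to 50.6% and from 7.88% to 17.99%, all above those of IF. EDL values chose the genes, so nothing is read from that order. TA 3, not shown, was at 39.7% and 8.75%.

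Of the 6 genes tested, Dcn, Ly6a and Ly6c1 had all 3 EDL libraries above the 12 others, as had 0.418% of all genes tested. Since EDL values chose the genes, nothing is read from that count. Their fitted folds stand beside a median of 0.063 over all genes. In the same contrast, edgeR called 14 genes (0.0976%), 9 higher and 5 lower, at an adjusted p under 0.05. The authors' deposited tables, made with DESeq per the submitters' processing notes, list the same 3 genes as higher in EDL than in IF. The fold was 23.8 for Dcn, 20.9 for Ly6c1 and 3.31 for Ly6a. The authors' deposited table of EDL against PL lists Ly6a (346-fold) and Dcn (42.0-fold), and that of EDL against TA lists Dcn (42.3-fold) and Ly6a (32.4-fold). The authors' deposited table of IF against GS lists Ly6a, 20.8-fold higher in IF. Their tables of IF against PL and of IF against TA do not list it. The edgeR fit differed there, since it called Ly6a in PL minus IF and not in GS minus IF. No table of genes higher in EDL than in GS was among the authors' tables. These comparisons share the EDL or IF libraries.

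Among other genes of fibroblasts and their matrix 1 passed the test in EDL. Of 40 such genes, written down with earlier results of these data known, 24 were tested and Col5a2 alone was called. Col5a2 encodes a chain of type V collagen, which is built into the core of type I fibrils. It was at 4.63, 3.73 and 9.16 CPM in EDL and at most 1.02 (GS 1) in the 12 others, 146 reads against 14, and its EDL mean was 32.5 times that of the rest (edgeR adjusted p = 0.0448). That call was lost without any 1 of the 15 libraries (adjusted p from 0.0521 to 0.193), without PL 2 and PL 3 (0.135), with DESeq2 (0.0752) and with the replicate block (0.112). Of the 24 genes, 15 (62.5%) had a higher mean in EDL, against 43.0% of all genes tested, and 58.3% against 46.3% without PL 2 and PL 3. Their median log2 ratio of mean levels, EDL over the 12 others, was 0.43, against -0.11 for all genes. At an unadjusted p under 0.05 stood 7 of the 24 (29.2%), 6 higher (Col5a2, Fmod, Col6a1, Postn, Fbln5 and Col6a2) and Fbln1 lower. Over all genes tested that share was 6.42%, with 663 higher and 257 lower. The median of the fitted log2 folds was 1.12 for the list and 0.063 for all genes, with 70.8% and 53.7% above 0. Fitted folds depend on the prior count where a pool has no read. Genes that pass the filter through EDL reads alone enter both scales. Col5a2, at most 1.02 CPM outside EDL, is such a gene. Its call, the shares at an unadjusted p and these medians are therefore descriptions. Fmod, a proteoglycan of tendon, was at 0, 7.81 and 4.26 CPM in EDL and reached 8.50 in IF 2. Without the filter on low counts, edgeR also called Col6a1 (adjusted p = 0.0351) and Fmod (0.0372), both higher in EDL. The summed level ran from 871 to 919.6 CPM in EDL and from 658 to 1281 in the others, and Fstl1 and Sparc made up most of it.

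None of the 5 defining markers of that list lay apart in EDL. Postn (periostin, a matrix protein of growing connective tissue) was at 4.98, 10.6 and 7.02 CPM in EDL and reached 15.9 in TA 1. Col6a1, a type VI collagen chain, was at 22.0 CPM in EDL 1 but at 0.339 and 0.627 in EDL 2 and EDL 3, and reached 24.6 in GS 3. Fn1 (fibronectin) was at 11.8 to 20.7 CPM in EDL and at 0.509 to 47.9 elsewhere. Bgn (biglycan), the nearest relative of decorin, was at 10.2, 4.87 and 0.878 CPM in EDL and reached 19.2 in PL 1. Fbln1, a fibulin of elastic and basement membrane matrix, had 10 reads in EDL against 439 in the 12 others. EDL 2, highest of all libraries for Dcn, was the lowest EDL library for Col6a1 and Fn1 and the highest for Postn. For Bgn and Fbln1, EDL 2 lay between EDL 1 and EDL 3. DESeq2 called Postn and edgeR did not (adjusted p = 0.378).

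No meningeal gene was called in EDL, where edgeR called 0.0976% of all genes tested, so nothing is read from the 0. Of 22 genes 10 were tested, and 0 were called by edgeR, DESeq2 or limma voom. A higher EDL mean was found for 4 (40%), against 43.0% of all genes tested. The median log2 ratio was -0.46 and the fitted median -0.25, against -0.11 and 0.063 for all genes. At an unadjusted p under 0.05 stood 2 of the 10 (20%, against 6.42% of all genes), both higher in EDL. They were Slc13a3, a dicarboxylate transporter, at 73.6, 13.9 and 21.1 CPM in EDL and up to 87.9 in TA 1, and S100a6, a calcium-binding protein, at 1.62, 6.34 and 0 CPM and up to 7.75 in IF 2. Slc6a13 and Slc22a6, transporters of leptomeningeal and other barrier cells, had no read in any library. Foxc1, a factor of meningeal and mural cells, had 11 reads in EDL, none of them in EDL 1, and 118 in the others. Ptgds, the prostaglandin D synthase of meninges and oligodendrocytes, had 4 reads in EDL and 105 in the others. The sum of the list ran from 373 to 1147 CPM in EDL and from 268 to 12871 in the 12 others. Nnat, which neurons express too, made up 261, 554 and 1096 CPM of it in EDL 1, 2 and 3. Of the 4 defining markers, both at 0 in EDL were at 0 in every library, and the other 2 reached at most 0.878 CPM in EDL. The part of meningeal RNA in the Dcn level was not tested.

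No endothelial gene was called either, where edgeR called 0.0976% of all genes tested, so nothing is read from the 0. Of 30 endothelial genes 23 were tested, and 0 were called by edgeR, DESeq2 or limma voom. A higher EDL mean was found for 11 (47.83%), against 43.0% of all genes tested. The median log2 ratio was -0.02, against -0.11 for all genes. On the fitted scale 14 were above 0 (60.9%, against 53.7% of all genes), with a median of 0.93 against 0.063. At an unadjusted p under 0.05 stood 2 of the 23, both higher in EDL, where 6.42% of all genes did. Sox18, a transcription factor of vessel development, was at 30.1, 2.26 and 9.16 CPM in EDL and at most 6.08 (IF 3) in the 12 others, and Nos3, the endothelial nitric oxide synthase, was at 0.579, 1.13 and 15.9 CPM and at most 6.61 (TA 1). Without PL 2 and PL 3, 60.9% had a higher EDL mean against 46.3% of all genes. Pecam1, which joins endothelial cells, was at 0, 9.17 and 5.64 CPM in EDL and reached 7.25 in IF 2. Cdh5, the cadherin of endothelial junctions, was at 0.463, 3.39 and 9.53 CPM in EDL and at 661 in PL 2. Cldn5, a tight junction protein of the blood-brain barrier, was at 0.232, 2.15 and 8.15 CPM in EDL and reached 17.7 in PL 3. Flt1, a receptor of vascular endothelial growth factor, was at 5.56, 10.6 and 5.02 CPM in EDL and reached 52.6 in TA 2. EDL 2, the highest EDL library for Dcn, Ly6a and Ly6c1, led for Pecam1 and Flt1, and EDL 3 led for Cdh5 and Cldn5. EDL 1, with 15.2 CPM of Ly6c1, had no read of Pecam1 and the most Sox18 of the 15 libraries. The summed endothelial level was 185 to 198 CPM in EDL and 119 to 1190 in the 12 others. The part of endothelial RNA in the Ly6a and Ly6c1 levels was not tested.

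Of 18 genes of pericytes and smooth muscle 10 were tested, and 4 (40%) had a higher EDL mean, against 43.0% of all genes tested. By edgeR, DESeq2 or limma voom 0 were called, where edgeR called 0.0976% of all genes. At an unadjusted p under 0.05 stood 3 of the 10 (30%, against 6.42% of all genes), Abcc9 and Vtn higher in EDL and Rgs5 lower. Abcc9, a potassium channel subunit of pericytes, was at 48.7, 39.6 and 37.4 CPM in EDL and at most 38.2 (TA 1) in the others, and Vtn (vitronectin) was at 0, 4.53 and 5.02 CPM and at most 3.62 (IF 2). Without the filter on low counts, edgeR called Rgs5 lower (adjusted p = 0.0117). Rgs5, a pericyte regulator of G protein signals, was at 51.9, 86.8 and 176 CPM in EDL and at 61.6 to 1576 in the others. Pdgfrb, the pericyte receptor of platelet-derived growth factor, was at 0.348, 4.75 and 2.01 CPM and reached 14.5 in GS 1. Acta2, Myh11 and Kcnj8 had 6, 2 and 12 reads in EDL against 40, 154 and 125. The list summed to 145 to 274 CPM in EDL and 97.9 to 1592 elsewhere.

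**Figure D4:**
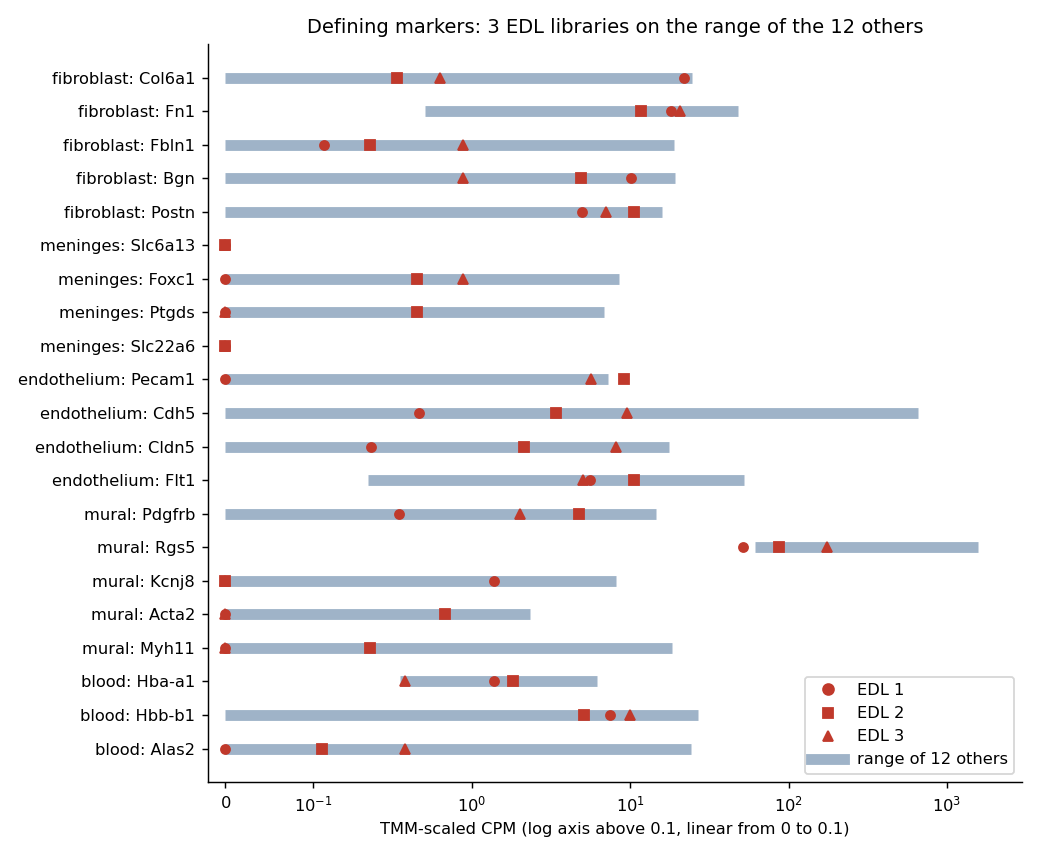
Defining markers of connective tissue, meninges, vessels and blood, in TMM-scaled CPM on a horizontal axis that is logarithmic above 0.1, with red symbols for the 3 EDL libraries and a bar for the range of the 12 others. No marker has all 3 EDL libraries above the bar.

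Blood cells, glia and muscle were checked in the same way. Among haemoglobin and red cell genes, Hba-a1 had 31 reads in EDL and 142 in the others, Hbb-b1 188 and 506, and Alas2 4 and 175. The summed blood level was 9.84 to 11.7 CPM in EDL and 1.92 to 55.6 in the others. Of the microglial markers, C1qa had no read in EDL, and Cx3cr1 and P2ry12 peaked at 7.36 and 2.60 CPM there against 10.1 and 13.4 elsewhere. Prx, which encodes periaxin, a protein of myelinating Schwann cells, had 46 reads in EDL, 38 of them in EDL 3, against 14 in the others. Schwann cell genes summed to 366 to 575 CPM in EDL and 181 to 1943 elsewhere. The muscle markers Acta1 and Ckm had 3 and 0 reads in EDL.

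Glial genes had reads in every pool. For scale, 43.0% of all genes tested had a higher EDL mean. Of all genes, edgeR called 0.0976%, and 6.42% stood at an unadjusted p under 0.05. Of 11 astrocyte genes tested 6 had a higher EDL mean, of 11 oligodendrocyte genes 1, and of 11 oligodendrocyte precursor genes other than Pdgfra 5, and edgeR called 0 in each list (1, 1 and 2 at an unadjusted p under 0.05, namely Fgfr3 higher, Mog lower, Tnr higher and Vcan lower), as did DESeq2 and limma voom. Summed levels were 2844 to 3397 CPM in EDL for astrocytes, against 2053 to 4206 in the others, and 496 to 825 for oligodendrocytes, against 299 to 2594. The precursor list, which shares cells with Pdgfra, summed to 363 to 443 CPM in EDL and 178 to 733 in the others, with TA 1 highest, the library that also led for Pdgfra. Gpr17 and Olig2, markers of that lineage, were at 28.2 to 64.1 and 17.5 to 44.1 CPM in EDL. Their part in the Pdgfra level was not tested. In such pooled captures, fewer cells of a type and less RNA per cell cannot be told apart.

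**Figure D5:**
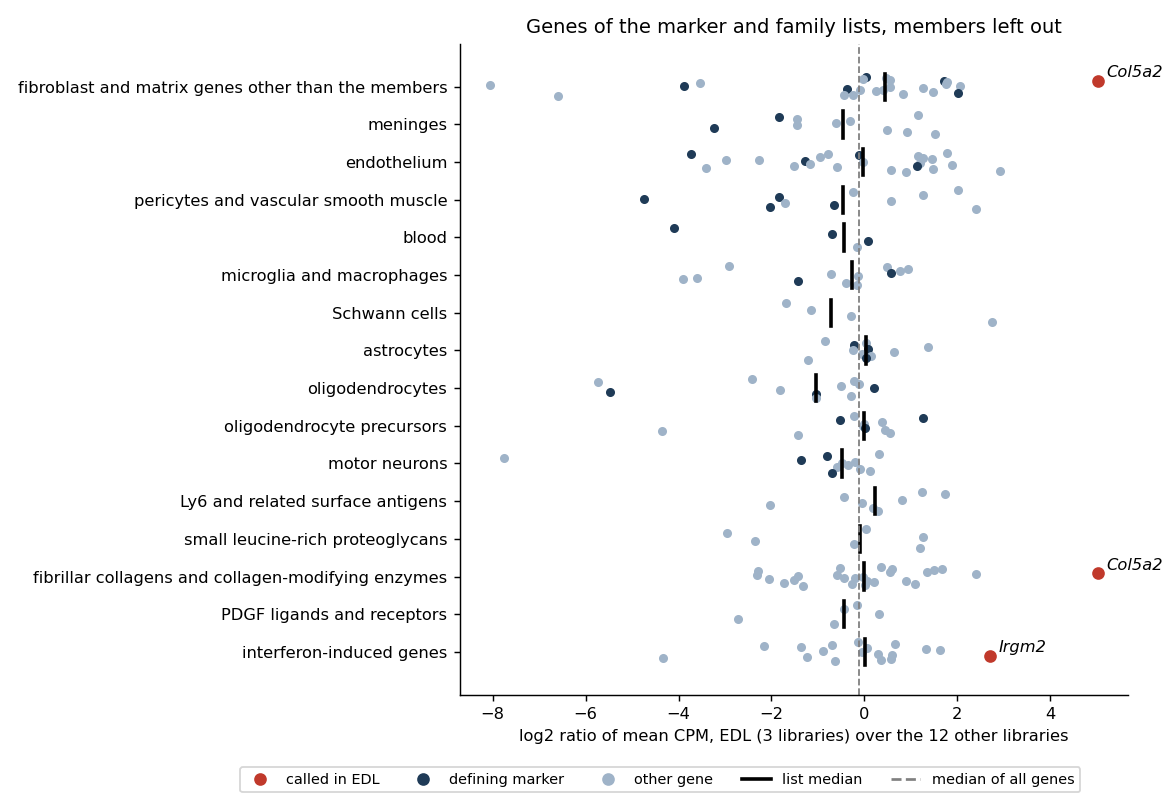
Log2 ratio of mean CPM, EDL over the 12 other libraries, on the horizontal axis for each tested gene of 16 lists (rows), with the 8 genes and the muscle list (1 gene tested) left out, list medians as bars and the median of all genes as a dashed line at -0.11. Col5a2 and Irgm2 are the genes called in EDL, and the medians of the meningeal, endothelial and mural lists are -0.46, -0.02 and -0.45.

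In the families of the 8 genes, 1 other gene was called in EDL, Col5a2, which passed the filter on low counts through its EDL reads. Over all genes tested, 43.0% had a higher EDL mean and 53.7% were above 0 on the fitted scale. Of all genes, edgeR called 0.0976%, and 6.42% stood at an unadjusted p under 0.05. Among the other small leucine-rich proteoglycans, 6 were tested, 3 had a higher EDL mean and 0 were called by edgeR (2 at an unadjusted p under 0.05, Fmod and Tsku, both higher), DESeq2 or limma voom. The median log2 ratio was -0.09 and the fitted median 1.08. Kera, the corneal member that lies beyond Lum, had no read in any library. Of 26 other fibrillar collagen genes and collagen-modifying enzymes tested, 13 had a higher EDL mean and Col5a2 was called. At an unadjusted p under 0.05 stood 3 (11.5%), Col5a2, Crtap and P4ha3, all higher in EDL. On the fitted scale 20 of the 26 were above 0, with a median of 0.61. The list holds Serpinh1, the chaperone of procollagen, which had 31 reads in EDL and 286 in the others, and Crtap, a subunit of the enzyme complex that hydroxylates prolines of type I collagen, which was at 2.90, 5.32 and 4.89 CPM in EDL and at most 3.46 elsewhere (IF 1). Crtap did not pass the edgeR test (adjusted p = 0.683). Serpinh1 did not pass either, with a fitted log2 fold of 0.43 ± 0.68.

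Of the ligands and receptors of platelet-derived growth factor other than Pdgfra, 5 were tested. A higher EDL mean was found for 1, and 0 were called by edgeR (1 at an unadjusted p under 0.05, lower). Over all genes tested these shares were 43.0%, 0.0976% and 6.42%. Pdgfa, the ligand that signals through Pdgfra, was at 158, 48.2 and 81.5 CPM in EDL and at 15.2 to 221 in the others. DESeq2 called Pdgfd lower in EDL and edgeR did not (adjusted p = 0.317).

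Of the other Ly6 genes and related surface antigens, 8 were tested. A higher EDL mean was found for 5, and 0 were called by edgeR (1 at an unadjusted p under 0.05, Cd59a, higher). Over all genes tested these shares were 43.0%, 0.0976% and 6.42%. Ly6e, which lies 34.97 kb from Ly6a, was at 339, 305 and 231 CPM in EDL and at 147 to 988 in the others, with PL 3 highest. Lynx1, a neuronal relative that binds nicotinic acetylcholine receptors, was at 1566 to 2251 CPM in EDL and 1462 to 3564 in the others. Cd59a, an inhibitor of complement, was at 196, 77.8 and 98.8 CPM in EDL and at most 106 elsewhere (PL 2). It was called by DESeq2 and missed the threshold in edgeR (adjusted p = 0.213). Ly6i, the gene next to Ly6a on the same strand, had 0 reads in EDL and 2 in the others. The EDL libraries were thus above all others for Ly6a and Ly6c1, and within their range for Ly6e and Lynx1.

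Genes were then ranked by likeness to Dcn over the 15 libraries, as Pearson r of log2(CPM + 1) among the 14339 other genes tested. Among the 10 nearest were ORF63 (r = 0.861), Ly6c1 (0.858), Crtap (0.850), Shisa3 (0.844), Ly6a (0.830), Prrxl1 (0.821), Krt80 (0.811), Ubtd1 (0.811) and Dyrk1b (0.803). Crtap, a collagen-modifying subunit, is 1 of them. Prrxl1 is a homeodomain factor best known from sensory and dorsal horn neurons, and stood at 23.9 ± 12.5 CPM in EDL, 3.63 in IF and at most 1.75 in the means of the others. Krt80 encodes an epithelial keratin. Lum, Col1a2 and Pdgfra, with r of 0.058, 0.365 and 0.146, were not among the 10. Dcn was highest in EDL, so the ranking selects for genes high in EDL. EDL values also chose Ly6a and Ly6c1, so nothing is read from their place in it.

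The 10 genes most like Ly6a were Ubtd1 (r = 0.909), Esr1 (0.901), Rftn1 (0.894), Oprm1 (0.890), Synj2 (0.885), Ube2l6 (0.876), Igtp (0.875), Vamp8 (0.847), C8b (0.846) and Synpr (0.838). All 10 had higher means in EDL and in IF than in TA, GS and PL. Ly6a has that order itself, so the ranking selects for it. Esr1, the oestrogen receptor alpha, was at 22.6 ± 11.4 CPM in EDL, 16.6 in IF and at most 1.63 in the means of TA, GS and PL. Oprm1, the mu opioid receptor, was at 4.74 ± 2.26 CPM in EDL and 6.38 in IF, with no read in TA or GS. Synpr encodes a synaptic vesicle protein, and Igtp and Ube2l6 are induced by interferon in many cells. Ubtd1 was in both sets of 10. By Spearman's rho only 2 of each 10 were again among the nearest 10, so the ranking rests on the scale used. The libraries share pool and depth, and no p is attached to these values.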

How the data were processed

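Per the labels' protocols, RNA of captured neurons was amplified to cDNA with an Ovation kit, made into Nextera libraries, which do not mark strand, and read from a single end on a HiSeq 2000. The deposited table gives a raw count per gene and library, from reads aligned with Bowtie 0.12.9 to mm9 per the submitters' processing notes. Which counter was used is not given in the sources used here. RPKM values that the authors deposited in the same table were used only to compare genes per length. Lists of pool differences, deposited by the authors, hold a fold (ratio of mean normalized counts) and adjusted p-values, from DESeq per the submitters' processing notes. Of the counts, 16 cells of 4 genes were below 0, and these genes were left out.

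All 15 libraries were fitted together with edgeR 4.0.16 (R 4.3.3): TMM scaling, filterByExpr (14340 genes kept), quasi-likelihood F-tests on 1 coefficient per pool, Benjamini-Hochberg adjustment over all genes tested and a threshold of 0.05. Contrasts were EDL minus the mean of the 4 other pools, and equality of TA, PL, GS and IF. The fit was tested on simulated data, with changes set only in genes above the median level. It recovered 75% of 8-fold and 95% of 32-fold changes in EDL. In the test of the 4 other pools, with changes set in IF, it recovered 63% and 87%. Genes of lower level were not tried, so a gene that was not called may still differ. Standard errors are the log2 fold over the square root of F. A list's ratio of mean levels takes 3 reads over the group where a group had none. Alternatives were RLE and no scaling, other filters, DESeq2 1.42.0, limma voom 3.58.1, a replicate block and single libraries left out; the ratios without PL 2 and PL 3 were chosen after seeing the data. No pair of libraries of 1 pool agreed within counting noise. Transcripts of GENCODE vM21 served for shared sequence. Named were the 8 genes, the defining markers of each list, up to 6 called genes per list and the 10 genes most like Dcn and Ly6a; a few genes that this rule names are not reported here, and any other gene named was chosen after its values were seen. The 8 genes and all lists were chosen with earlier results of these data known.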

Additional observations from a re-analysis of the deposited data

How the results depend on the processing

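Against the 14 genes called in EDL, no scaling beyond the library total gave 25, no filter on low counts 238, DESeq2 69, limma voom 38 and the fit without PL 2 and PL 3 28. Leaving out 1 library gave 2 (without EDL 2) to 25 (without PL 1). Against the 207 genes called among TA, PL, GS and IF, these settings gave 100 (no scaling), 1234 (no filter) and 1160 (DESeq2), the fit of the 12 libraries alone gave 86, and leaving out 1 library gave 58 (without IF 2 or IF 3) to 1520 (without PL 1). With the replicate number as a block, 7 and 93 genes were called. The labels do not say whether libraries of the same number belong together. Deviations of same-numbered libraries correlated from -0.059 to 0.111, and those of different numbers from -0.071 to 0.063. These ranges cannot settle whether the libraries are paired, so the block result is given for its counts only. The cause of these shifts was not tested. No log2 fold of Dcn, Ly6a or Ly6c1 in EDL turned in sign under these settings. Pdgfra, not called, turned from -0.37 to 0.03 without GS 1, and Lum stood at -7.11 without EDL 1, where EDL has no read and the size depends on the prior count. The call of Ly6a among the 4 pools was kept without each single library (adjusted p up to 0.0187). Depth limits Col1a1 and Col3a1, which had at most 15 and 18 reads in a library, and PL 2 and PL 3, where 3 reads are worth 0.958 and 0.662 CPM.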

Other observations

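Interferon-induced genes were listed because Ly6a is 1 of them in many cells. Of 35 such genes 18 were tested. In EDL 9 of the 18 had a higher mean, with a median log2 ratio of 0.01 against -0.11 for all genes. On the fitted scale 15 of the 18 (83.3%) were above 0, against 53.7% of all genes, with a median of 1.23 against 0.063. At an unadjusted p under 0.05 stood 4 of the 18 (22.2%, against 6.42% of all genes), Irgm2, Igtp, Oasl2 and Iigp1, all with a fitted fold above 0. By mean level, Oasl2 and Iigp1 went the other way, with EDL at 0.427 and 0.538 times the 12 others. The scales differ, since a fitted fold weights the 4 other pools equally and depends on the prior count where a pool has no read. After adjustment edgeR called Irgm2 alone (adjusted p = 0.0217), an interferon-induced GTPase. Irgm2 was at 29.3, 27.6 and 47.4 CPM in EDL and at most 33.8 in PL 3. Its call was lost without 1 library in 8 of 15 cases, those of EDL among them (adjusted p up to 0.108), and DESeq2 gave it no adjusted p. Without the filter on low counts Igtp was called too (adjusted p = 0.0400).

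Across TA, PL, GS and IF, the comparison in which Ly6a was called, edgeR called 3 of the 18, against 1.44% of all genes tested. They were Oasl2 (adjusted p = 0.0421), Irgm2 (0.0273) and Igtp (0.0455), all with higher means in IF than in TA and GS. Irgm2 differed in PL: of the libraries of these pools, PL 3 held the most. Oasl2 was at 11.9 CPM in IF and 1.26 in EDL, with no read in TA, GS or PL. Igtp was at 4.30 CPM in IF and 3.37 in EDL, with no read in TA or PL. Ifit1 and Isg15, 2 widely used markers of an interferon response, were not tested. Ifit1 had 0 reads in EDL and Isg15 had 1, and both peaked in IF at 1.53 and 1.25 CPM. IF thus held Ly6a beside Oasl2 and Igtp. EDL held more Ly6a with less Oasl2, but Igtp was near its IF level and Irgm2 was called higher in EDL. The part of interferon in the Ly6a level was not tested.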
